A study of Homo sapiens with 28 samples.

Results

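The 10 genes described here encode the receptor that carries most mRNA out of the nucleus and the proteins that load mRNA onto it. They are NXF1, NXT1, ALYREF, DDX39B, THOC1, THOC2, THOC5, THOC6, THOC7 and ZC3H11A, and they were taken by gene symbol from the tables of all reads and of T>C reads. All 10 had 1 row in each table, among 16482 genes with all reads and 13029 genes with T>C reads. The files pair each symbol with an Ensembl ID, among them ENSG00000162231 for NXF1 and ENSG00000132661 for NXT1, and the genes lie on chromosomes 11 (NXF1), 20 (NXT1), 17 (ALYREF), 6 (DDX39B), 18 (THOC1), X (THOC2), 22 (THOC5), 16 (THOC6), 3 (THOC7) and 1 (ZC3H11A). The cells were MDA-MB-453, a human breast cancer line of the luminal androgen receptor type. They had been kept for 3 h in IBET151-VHL, JQ1-VHL, IBET151, JQ1 or DMSO, the solvent control. JQ1 and IBET151 block the bromodomains of BET proteins, which bind acetylated histones and promote transcription. The VHL compounds are, by their names, these inhibitors joined to a group that binds VHL, a ubiquitin ligase receptor, a kind of compound built to direct its target to degradation. Every group, DMSO included, had 0.1 mM 4-thiouridine in the medium for the last 60 min, which is read as C after alkylation. Reads that carry such T-to-C changes (T>C reads) are taken here as RNA made in that time, called new RNA below. Their background was not measured. Digitonin then parted each sample into a nuclear and a cytoplasmic fraction. This gave 28 libraries in 10 groups, of 3 libraries each, or 2 where the drug was IBET151. The series asks how export factors and nuclear speckles store new transcripts when transcription is briefly blocked.

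In the cell, mRNA leaves the nucleus through the pore as a particle bound to the heterodimer of NXF1 and its small partner NXT1. The TREX complex prepares the mRNA for this step: the THO subunits (THOC1, THOC2, THOC5, THOC6 and THOC7 among them) join transcription to export, the RNA helicase DDX39B remodels the particle, and the adaptor ALYREF hands the mRNA to NXF1. ZC3H11A, a zinc finger protein, copurifies with TREX. What was measured here is the RNA of these genes, not their proteins or their activity.

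The partners of the receptor gave unlike values, as described further on, so their promoters are shown. They were taken from the RefSeq table for GRCh38.p14, which held 9 of the 10 genes, and each runs from 250 bases before to 50 bases after the annotated start. NXF1 lies at chr11:62805391-62805690 on the minus strand, and NXT1 at chr20:23350541-23350840 on the plus strand.
NXF1: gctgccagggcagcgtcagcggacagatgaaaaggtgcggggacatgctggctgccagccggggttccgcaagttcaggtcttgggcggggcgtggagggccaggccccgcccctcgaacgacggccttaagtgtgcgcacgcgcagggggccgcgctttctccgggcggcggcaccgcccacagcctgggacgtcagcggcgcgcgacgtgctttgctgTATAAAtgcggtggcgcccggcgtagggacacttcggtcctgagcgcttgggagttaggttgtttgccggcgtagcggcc
NXT1: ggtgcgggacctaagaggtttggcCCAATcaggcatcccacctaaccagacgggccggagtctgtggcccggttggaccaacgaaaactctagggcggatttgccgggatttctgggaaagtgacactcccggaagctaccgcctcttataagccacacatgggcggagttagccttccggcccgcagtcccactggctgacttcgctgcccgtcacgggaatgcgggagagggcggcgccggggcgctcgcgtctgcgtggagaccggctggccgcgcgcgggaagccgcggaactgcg
Capitals mark TATAAA in NXF1, which begins at base -30 from the start, and CCAAT in NXT1, which begins at base -226. With both strands searched, TATAAA or TTTATA was in 11.5% of 35116 promoters of this length, and in 3 of the 9 export genes (NXF1, ALYREF and DDX39B). CCAAT or ATTGG was in 34.6% of the promoters, and in 3 of the 9 (NXT1, ALYREF and THOC6). The match is of letters only.

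The values are reads scaled by the authors to ERCC RNA, a synthetic mixture that was added per mass of extracted RNA. They are therefore relative to the RNA mass of a fraction, with no measure per cell, and fewer cells of a kind cannot be told apart from less RNA per cell. Nuclear libraries held 17851589 to 38658448 reads, of which 1.10 to 8.02% were T>C reads, and cytoplasmic libraries held 30647584 to 68475299, of which 0.235 to 0.818% were. Several nuclear libraries stood apart. In the first run of library numbers (replicate 1 of IBET151-VHL, JQ1-VHL, JQ1 and DMSO), scaled values summed to 13857990 to 22303955, against 38469232 to 67900669 in the other 10. In replicate 3 of JQ1 and of DMSO, T>C reads made up 1.94% and 2.25% of nuclear reads, against 5.69 to 8.02% in replicates 1 and 2 of the same groups. The 9 markers of the line were measured in all libraries, and the nuclear RNA MALAT1 lay at 15747 to 65876 in nuclear and 1181 to 4769 in cytoplasmic libraries. Markers that the line should lack were low or came from 1 gene: ESR1 and PGR summed to 61.3 to 193 in nuclear and 6.21 to 33.8 in cytoplasmic libraries, and 8 of the 9 listed markers of other cells, those with a row, to 1608 to 6970 and 1228 to 2569, mostly COL1A1. As a check of the treatment, the BET target MYC fell in cytoplasmic RNA by 3.82 under IBET151-VHL and by 4.29 under JQ1-VHL on the log2 scale, and was not called under IBET151 (-1.07) or JQ1 (-1.10). The labels do not say how replicates were made, so p-values measure the spread between these libraries, which may be technical. In nuclear T>C reads that spread was pooled over genes (108531 degrees of freedom in limma), so it was not each gene's own. P-values there could be too small where the genes of a library deviate together. All comparisons below with DMSO share the same DMSO libraries.

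In DMSO cells, the RNA of THOC1, ZC3H11A, THOC2, DDX39B and NXF1 was higher in the nucleus than in the cytoplasm, per RNA mass. NXF1 read 1886, 4125 and 4600 in the nuclear libraries, against 1071, 1203 and 940 in the cytoplasmic ones, a log2 difference of 1.63 ± 0.51 (SE; limma, adjusted p = 0.0075). ZC3H11A read 7838, 10362 and 9468 in the nucleus, against 1112, 2079 and 1151 in the cytoplasm. The groups did not overlap for either gene, and the log2 difference for ZC3H11A was 2.72 ± 0.53 (adjusted p = 4.22e-05). The 5 genes were higher by 1.63 to 2.85 on the log2 scale, where the median of all 14458 genes was 1.26 and 47.9% of them passed as higher. Only 3 export genes had a nuclear level below the cytoplasmic one: ALYREF (-0.47 ± 0.63), NXT1 (-0.48 ± 0.59) and THOC7 (-1.19 ± 0.62), and none of these 3, nor THOC5 (0.50 ± 0.53) and THOC6 (0.81 ± 0.61), passed. Same-numbered DMSO libraries of the fractions deviated together, and with the replicate number as a block THOC7 was lower in the nucleus (-1.19, adjusted p = 0.0195). With median-ratio scaling, which moved the median of all genes to 0.17, ZC3H11A, THOC1, THOC2 and NXF1 were higher in the nucleus and THOC7 (-2.33), NXT1 (-1.61), ALYREF (-1.61) and THOC5 (-0.64) were lower. NXT1 overlapped on the deposited scale, with 363, 1219 and 2126 in the nucleus and 906, 1683 and 1659 in the cytoplasm.

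New RNA was more nuclear still. DDX39B, THOC1 and THOC6 had only 1, 6 and 1 T>C reads over the 3 cytoplasmic DMSO libraries and passed the filter on low values through the nucleus alone, so their difference is not counted. Of the other 7 genes, 6 were higher in the nucleus in T>C reads of DMSO cells, by 1.87 (THOC7) to 5.33 (ZC3H11A) on the log2 scale. Among the 6300 genes that also passed the filter in the cytoplasm, the median was 3.5 and 97.1% passed as higher. The exception was NXT1, with a log2 difference of 0.98 ± 0.69 (limma, adjusted p = 0.166). Its T>C reads came to 48.2, 315 and 245 in the nucleus, against 60.4, 99.6 and 79.7 in the cytoplasm. As a share of each gene's own reads, T>C reads were higher in the nucleus for each of these 7 genes, by 1.46 for NXT1 and 2.61 (ZC3H11A) to 3.56 (NXF1) for the others on the log2 scale (median of 6299 such genes 2.62; 91.0% passed). NXT1's own call on the share was lost without replicate 2 or 3 of cytoplasmic DMSO or without replicate 2 of nuclear DMSO. With median-ratio scaling (median of all genes 0.754), the T>C differences of NXT1 (-2.27), THOC7 (-1.17) and ALYREF (-1.0) turned below 0, and only NXT1 passed of the 3.

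**Figure D1:**
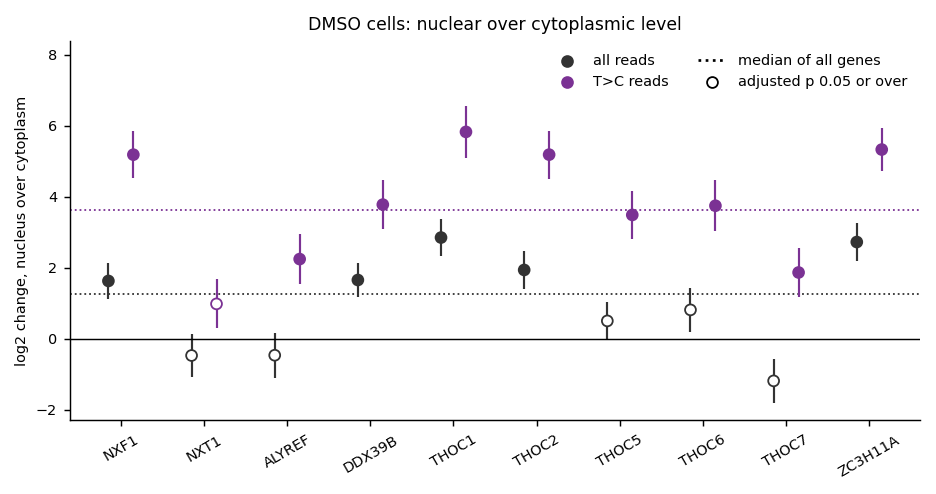
Log2 difference, nucleus over cytoplasm, of each export gene in DMSO cells (points: limma estimate; bars: SE; 3 libraries per fraction), for all reads and for T>C reads, with the median of all genes as dotted lines. NXT1, ALYREF and THOC7 are the 3 genes below 0 in all reads, and NXT1 is the 1 open point (adjusted p not under 0.05, at 0.98) in T>C reads, where DDX39B, THOC1 and THOC6 rest on 1, 6 and 1 cytoplasmic reads.

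NXT1, the small partner of NXF1, fell in cytoplasmic RNA under both VHL compounds, and it was the only one of the 10 genes to do so. In all reads it measured 406, 473 and 547 under IBET151-VHL, 631, 779 and 773 under JQ1-VHL, 1081 and 1290 under IBET151, 986, 952 and 1035 under JQ1, and 906, 1683 and 1659 in DMSO. Every library of the VHL compounds lay below every DMSO library, while the JQ1 and IBET151 libraries overlapped DMSO. IBET151-VHL changed NXT1 by -1.53 ± 0.22 on the log2 scale, a fall to 0.347 of the DMSO level (limma, adjusted p = 0.000207). JQ1-VHL changed it by -0.91 ± 0.22 (adjusted p = 0.013). In these 2 comparisons 15.4% and 12.5% of all 12470 genes fell. IBET151 (-0.21 ± 0.25) and JQ1 (-0.46 ± 0.22) gave no call for any export gene, where 1.62% and 4.0% of all genes fell; 2 and 0 of the 10 had an unadjusted p under 0.05, and edgeR and DESeq2 called 0. The JQ1-VHL call was lost without JQ1-VHL replicate 1 (-0.81, adjusted p = 0.0745), without DMSO replicate 2 (-0.76, adjusted p = 0.0603) or with median-ratio scaling (-0.69, adjusted p = 0.0708), and JQ1 passed without DMSO replicate 1 (-0.75, adjusted p = 0.0302).

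In the nucleus NXT1 gave 94.7, 327 and 316 under IBET151-VHL, 156, 618 and 533 under JQ1-VHL, 590 and 962 under IBET151, 210, 646 and 1566 under JQ1, and 363, 1219 and 2126 in DMSO. All 3 IBET151-VHL libraries lay below the lowest DMSO library, which is the one of the first run, and JQ1-VHL overlapped it. The log2 change was -2.19 ± 0.73 under IBET151-VHL (limma, adjusted p = 0.0617) and -1.39 ± 0.73 under JQ1-VHL (adjusted p = 0.516). Same-numbered nuclear libraries of these groups deviated together, and with the replicate number as a block both changes passed (adjusted p = 2.59e-09 and 0.000431). Replicate 3 of both VHL compounds had library numbers of another run than DMSO replicate 3, so that pairing is by number and not by run. IBET151-VHL also passed without the 4 libraries of the first run (-2.32, adjusted p = 0.0058), and without DMSO replicate 1 or IBET151-VHL replicate 2.

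New NXT1 RNA fell in both fractions. Its cytoplasmic T>C values were 3.36, 6.92 and 0.597 under IBET151-VHL (5, 8 and 1 reads) and 4.02, 22.6 and 14.1 under JQ1-VHL, against 60.4, 99.6 and 79.7 in DMSO. Neither group reached the lowest DMSO library. The log2 changes were -4.38 ± 0.55 (limma, adjusted p = 6.49e-08) and -2.71 ± 0.55 (adjusted p = 8.85e-05), where the medians of all 6300 genes were -2.90 and -2.42. In the nucleus the changes were -4.25 ± 0.76 (adjusted p = 1.42e-07) under IBET151-VHL and -2.51 ± 0.76 (adjusted p = 0.00389) under JQ1-VHL, where the medians of all 12059 genes were -3.12 and -1.92. The JQ1-VHL change in the nucleus missed the threshold without JQ1-VHL replicate 1 (adjusted p = 0.0548) or DMSO replicate 2 (adjusted p = 0.0585). Of the 10 genes, NXT1 had the highest share of T>C reads in each cytoplasmic DMSO library (6.67, 5.92 and 4.80%, where no other gene passed 3.19%).

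**Figure D2:**
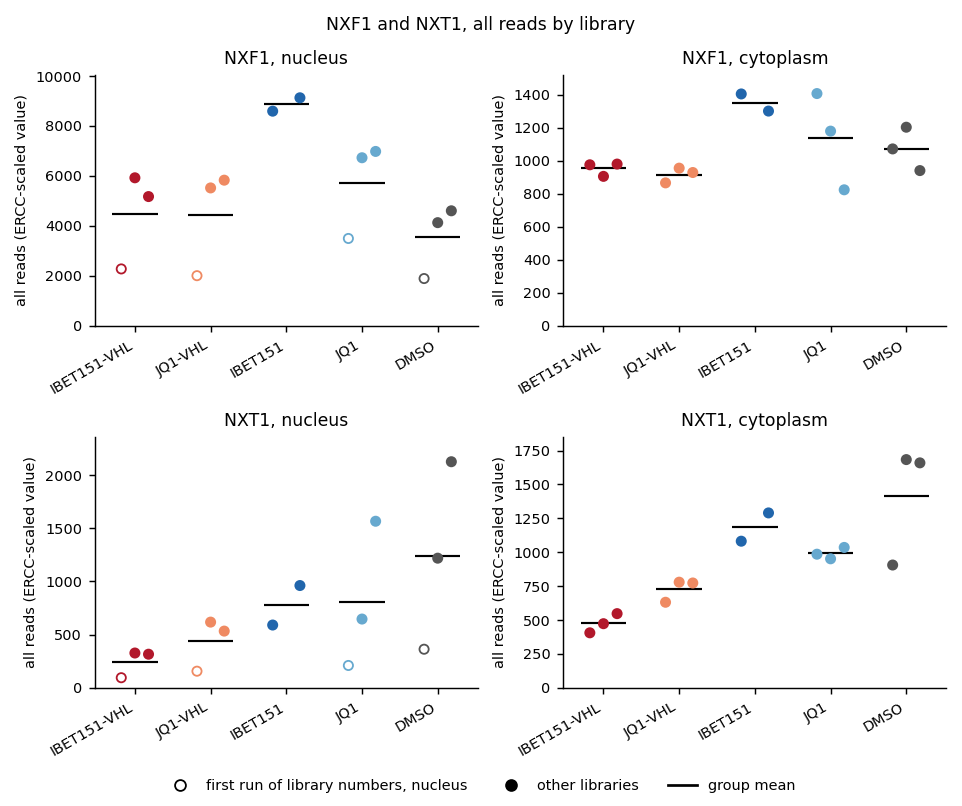
ERCC-scaled level of NXF1 (top) and NXT1 (bottom) in every nuclear and cytoplasmic library (points; bars: group means; open points: first run of library numbers). Cytoplasmic NXT1 lies at 406 to 547 under IBET151-VHL and 631 to 779 under JQ1-VHL, below all 3 DMSO libraries (906 to 1683).

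NXF1, the receptor itself, did not share this fall. On the deposited scale its nuclear values were 2271, 5922 and 5170 under IBET151-VHL, 2000, 5516 and 5827 under JQ1-VHL, 8591 and 9128 under IBET151, 3491, 6725 and 6978 under JQ1, and 1886, 4125 and 4600 in DMSO. Both IBET151 libraries lay above all others, and every group overlapped DMSO except IBET151. None of the 4 log2 changes passed: 0.32 ± 0.76 under IBET151-VHL, 0.28 ± 0.76 under JQ1-VHL, 1.43 ± 0.85 under IBET151 and 0.73 ± 0.76 under JQ1 (limma, adjusted p = 0.797, 0.926, 1 and 0.963). The medians of all 14417 genes were -0.709, -0.481, 0.054 and -0.427. In same-numbered pairs NXF1 was above DMSO in 3 of 3 pairs each under IBET151-VHL, JQ1-VHL and JQ1. With the replicate number as a block these changes were 0.32 ± 0.29, 0.28 ± 0.29 and 0.73 ± 0.29 (adjusted p = 0.346, 0.479 and 0.081). Replicate 3 of the VHL compounds and of DMSO had library numbers of different runs, so those pairs share a number but not a run.

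As a share of the nuclear library, NXF1 was higher under all 4 drugs. In CPM, the reads of a gene scaled to a common library total, NXF1 gave 164, 149 and 118 under IBET151-VHL, 135, 123 and 117 under JQ1-VHL, 208 and 167 under IBET151, 221, 175 and 112 under JQ1, and 84.5, 85.0 and 67.7 in DMSO. No drug library overlapped DMSO. After median-ratio scaling, which brought the median change of all genes to within 0.0589, the log2 changes were 1.10, 0.82, 1.38 and 1.18 in that order, and all 4 passed (adjusted p = 0.000966, 0.0099, 0.00201 and 0.00233), where 5.11%, 2.82%, 1.75% and 2.03% of all genes passed as higher. After scaling to the library sum, a setting added once the data had been seen, the changes were 0.85, 0.67, 1.24 and 1.05, and all but JQ1-VHL (adjusted p = 0.0729) passed, where 2.28%, 1.87%, 1.19% and 1.34% of genes were higher. Runs of library numbers held different groups: the third had no DMSO or JQ1, and the fourth only DMSO and JQ1. DMSO thus shared just the second run with IBET151, and the first and second with each VHL compound. With a block for the run on the deposited scale, NXF1 was higher under IBET151 (0.99, adjusted p = 0.00124). It was also higher under JQ1 (0.73, adjusted p = 0.00109) and not called under the VHL compounds. Thus a rise of NXF1 depends on the scaling for IBET151-VHL and JQ1-VHL, for which the ERCC-scaled change was 0.32 and 0.28. For IBET151 and JQ1 the ERCC-scaled change was not called in the fit of all libraries without a block. Their calls therefore depend on the scaling or the model.

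The same held for new NXF1 RNA in the nucleus. In CPM of T>C reads NXF1 made up 241, 397 and 205 under IBET151-VHL, 172, 191 and 188 under JQ1-VHL, 329 and 236 under IBET151, 295, 292 and 188 under JQ1, and 81.9, 104 and 35.1 in DMSO. The groups did not overlap DMSO. On the deposited scale the T>C values were 57.5, 209 and 98.5 under IBET151-VHL, 48.9, 203 and 224 under JQ1-VHL, 755 and 470 under IBET151, 311, 638 and 226 under JQ1, and 147, 320 and 53.6 in DMSO, where only the IBET151 group did not overlap DMSO. The log2 changes were -0.36 ± 0.68, -0.06 ± 0.68, 2.12 ± 0.76 and 1.38 ± 0.68, none of them called (limma, adjusted p = 0.616, 0.939, 0.186 and 0.334). Median-ratio scaling gave 2.63, 1.69, 2.10 and 1.96, all called (adjusted p = 2.2e-05, 0.00293, 0.00499 and 0.00413), where 13.9%, 6.02%, 0.755% and 0.887% of genes were higher. Library-sum scaling gave 1.99, 1.44, 2.04 and 1.90, also called, where 7.37%, 4.04%, 0.705% and 0.78% were higher. With the run as a block on the deposited scale the IBET151-VHL change was -0.99 (adjusted p = 0.0235) and that of JQ1 was 1.38 (adjusted p = 0.0162), so the direction under IBET151-VHL turned with the scaling.

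**Figure D3:**
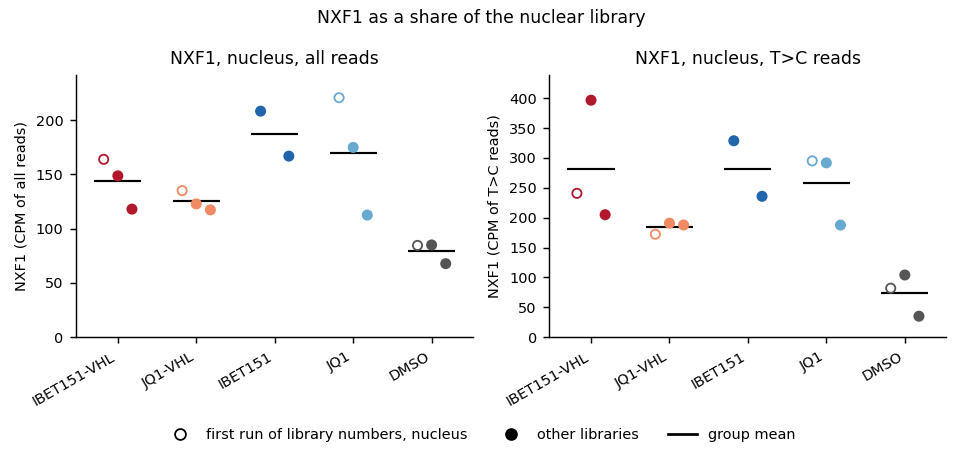
NXF1 in CPM of all reads (left) and in CPM of T>C reads (right) in every nuclear library (points; bars: group means; open points: first run of library numbers). The 3 DMSO libraries lie at 67.7 to 85.0 and at 35.1 to 104, below every drug library in both panels.

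In all cytoplasmic reads on the deposited scale NXF1 gave 975, 905 and 980 under IBET151-VHL, 866, 955 and 928 under JQ1-VHL, 1405 and 1301 under IBET151, 1407, 1179 and 824 under JQ1, and 1071, 1203 and 940 in DMSO. The groups overlapped except IBET151, which lay above DMSO, and no change passed (0.34 ± 0.21 under IBET151, limma, adjusted p = 0.553). In CPM the VHL compounds lay below DMSO (35.4 to 38.9), at 33.1 to 35.2 under IBET151-VHL and 32.1 to 34.4 under JQ1-VHL. IBET151 (40.3 to 47.0) lay above DMSO in CPM, and JQ1 (32.2 to 46.0) overlapped it. The cytoplasmic T>C reads of NXF1 were few, 0, 1 and 0 under JQ1-VHL and 4, 3 and 5 in DMSO. That change was called (-1.60 ± 0.62 on the log2(value + 1) scale; limma, adjusted p = 0.0196), and the call was lost without JQ1-VHL replicate 1 or 3.

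In new nuclear RNA ALYREF and ZC3H11A fell under both VHL compounds and the helicase DDX39B under IBET151-VHL, as most genes did, with no change of these 3 called in all reads under any drug in the fit without a block. ALYREF, which passes mRNA to NXF1, measured 1.55, 25.9 and 8.96 in nuclear T>C reads under IBET151-VHL and 16.1, 36.0 and 55.5 under JQ1-VHL, against 67.7, 262 and 167 in DMSO. No library of either compound reached the lowest DMSO library. The changes were -4.04 ± 0.76 (limma, adjusted p = 5.75e-07) and -2.13 ± 0.76 (adjusted p = 0.0128) on the log2 scale. The second missed the threshold without replicate 1 of JQ1-VHL or replicate 2 of DMSO. In cytoplasmic T>C reads ALYREF had 3, 6 and 6 reads under IBET151-VHL and 1, 9 and 1 under JQ1-VHL, against 26, 55 and 51 in DMSO, with changes of -2.79 ± 0.60 and -3.35 ± 0.60 (adjusted p = 0.00013 and 2.42e-05). Over all cytoplasmic reads ALYREF stayed within the DMSO range in every IBET151-VHL and JQ1-VHL library (5253 to 7541, against 4808 to 8904 in DMSO; changes of 0.07 ± 0.21 and -0.03 ± 0.21).

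ZC3H11A gave the most T>C reads of the 10 in nuclear DMSO libraries, at 1168, 1737 and 553 scaled units. It measured 68.3, 111 and 94.0 under IBET151-VHL and 130, 487 and 418 under JQ1-VHL, each below every DMSO library. The changes were -3.53 ± 0.68 (limma, adjusted p = 8.03e-07) and -1.80 ± 0.68 (adjusted p = 0.0173), the second lost without replicate 1 of JQ1-VHL or replicate 1 or 2 of DMSO. IBET151 (791 and 733) and JQ1 (414, 973 and 311) overlapped DMSO. In cytoplasmic T>C reads it fell by 2.61 under IBET151-VHL and by 2.13 under JQ1-VHL on the log2 scale. The last 500 bases of the ZC3H11A gene, where 3′ reads gather, all overlap exons of ZBED6 on the same strand in the GENCODE annotation of GRCh38. How the counting assigned reads there is not known.

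DDX39B, the helicase, had only 23 to 136 reads per library. The readthrough gene ATP6V1G2-DDX39B shares 29.7% of its exon bases and overlaps 232 of its last 500 bases, so the level of DDX39B is uncertain. In nuclear T>C reads it gave 2, 1 and 4 reads under IBET151-VHL and 15, 12 and 7 in DMSO, a change of -2.03 ± 0.90 (limma, adjusted p = 0.0296) that was lost without any 1 of replicates 1 and 2 of either group. Under JQ1-VHL it gave 12, 8 and 3 reads and was not called (-0.70 ± 0.90, adjusted p = 0.478). It did not pass the filter on cytoplasmic T>C reads.

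Of the THO subunits, THOC1, THOC2, THOC5 and THOC7 fell in nuclear T>C reads under IBET151-VHL, and THOC6 did not pass. THOC2, the large scaffold subunit, gave 31.1, 25.9 and 35.8 under IBET151-VHL and 31.5, 134 and 164 under JQ1-VHL, against 416, 410 and 169 in DMSO. All values of both compounds lay below DMSO. The changes were -3.28 ± 0.69 (limma, adjusted p = 6.75e-06) and -1.77 ± 0.69 (adjusted p = 0.0217), the second lost without replicate 1 of JQ1-VHL or replicate 1 or 2 of DMSO. THOC1 measured 14.8, 6.92 and 6.72 under IBET151-VHL, against 193, 117 and 47.9 in DMSO (-3.39 ± 0.76, adjusted p = 1.86e-05). THOC5, a subunit that also contacts NXF1, measured 10.9, 15.6 and 4.48 under IBET151-VHL, against 152, 200 and 74.7 in DMSO (-3.69 ± 0.74, adjusted p = 2.04e-06). Under JQ1-VHL both genes overlapped DMSO and neither was called. THOC6, a WD repeat subunit, gave 9, 4 and 1 reads under IBET151-VHL and 15, 13 and 6 in DMSO (-1.48 ± 0.90, adjusted p = 0.113).

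THOC7, a small THO subunit, had 0 T>C reads in all 3 IBET151-VHL libraries of each fraction. In nuclear DMSO libraries it had 27, 29 and 15 T>C reads and in cytoplasmic ones 7, 23 and 10. Under JQ1-VHL it had 9, 4 and 6 in the nucleus and 2, 2 and 0 in the cytoplasm, each below every DMSO library. Taking 3 reads per library as the most that a count of 0 allows, its level under IBET151-VHL was at least 7.38-fold lower in the nucleus and at least 4.72-fold lower in the cytoplasm. These limits cover counting error only, since the reads carry no molecular identifiers. All cytoplasmic THOC7 reads stood at 3698, 3477 and 3551 under IBET151-VHL, against 1810, 4382 and 3342 in DMSO, which they overlap (0.26 ± 0.24). In the fit without a block, THOC7 was also the only one of the 10 called in T>C reads under IBET151 or JQ1 against DMSO on the deposited scale: with 1 and 0 cytoplasmic T>C reads under IBET151 it changed by -2.75 ± 0.72 on the log2(value + 1) scale (limma, adjusted p = 0.0173). That call was lost without IBET151 replicate 2 or DMSO replicate 2, and edgeR did not make it. In all cytoplasmic reads THOC6 was higher in value under the 4 drugs (changes of 0.89 to 1.23, none called), with 47.5, 328 and 155 in DMSO. Without DMSO replicate 2 all 4 passed (1.53 to 1.88, adjusted p = 0.0125 to 0.0479). That replicate lay among the drug libraries (205 to 362), and DMSO replicate 1, with 59 THOC6 reads, was the lowest library. The changes of THOC6 thus depend on single DMSO libraries.

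Counted together, 8 of the 10 genes fell in nuclear T>C reads under IBET151-VHL and 4 under JQ1-VHL, where 83.9% and 60.5% of all genes fell. With the bound for THOC7, the median change of the 10 was -3.34 and -1.62, against -3.12 and -1.92 over all genes. IBET151 and JQ1 gave 0 calls, where 0.987% and 2.29% of genes fell; 1 and 3 of the 10 had an unadjusted p under 0.05, and edgeR and DESeq2 also called 0. With a block for the run of library numbers the 10 genes gave 10, 7, 0 and 2 falls under IBET151-VHL, JQ1-VHL, IBET151 and JQ1, where 88.9%, 83.0%, 5.09% and 10.8% of all genes fell. Without the first run they gave 7, 2, 0 and 0, where 77.2%, 21.1%, 0.151% and 0.101% of all genes fell. With median-ratio scaling the count under IBET151-VHL was 1 fall (THOC7) and 1 rise (NXF1), where 27.6% of all genes fell and 13.9% rose. In the cytoplasm 7 genes could be tested, since DDX39B, THOC1 and THOC6 had too few T>C reads. Of these 5 fell under IBET151-VHL and 5 under JQ1-VHL, where 88.3% and 82.8% of all genes fell, and 1 under IBET151 and 0 under JQ1, where 6.76% and 20.1% did. Under JQ1, 3 of the 7 had an unadjusted p under 0.05, and edgeR and DESeq2 called 0. In T>C reads without a block, the shares of falling export genes under the VHL compounds were thus near or below those among all genes. With the run as a block the share under IBET151-VHL was above it (10 of 10, against 88.9%).

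In all nuclear reads no export gene was called under any drug, where 4.55%, 1.97%, 0.0971% and 0.0694% of all genes changed under IBET151-VHL, JQ1-VHL, IBET151 and JQ1. An unadjusted p under 0.05 was found for 2, 0, 0 and 0 of them, and edgeR and DESeq2 each called 1, NXT1 under IBET151-VHL. With the replicate number as a block, 5 genes fell under IBET151-VHL: NXT1 (-2.19), THOC1 (-1.44), ZC3H11A (-1.15), THOC5 (-0.88) and ALYREF (-0.70). In that fit NXT1 (-1.39) fell under JQ1-VHL and ZC3H11A (-0.80) under JQ1, where 43.7%, 23.4% and 9.54% of all genes fell under the 3 drugs. With a block for the run of library numbers 6, 3, 3 and 7 of the 10 fell, where 57.3%, 38.6%, 20.4% and 32.7% of all genes did.

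**Figure D4:**
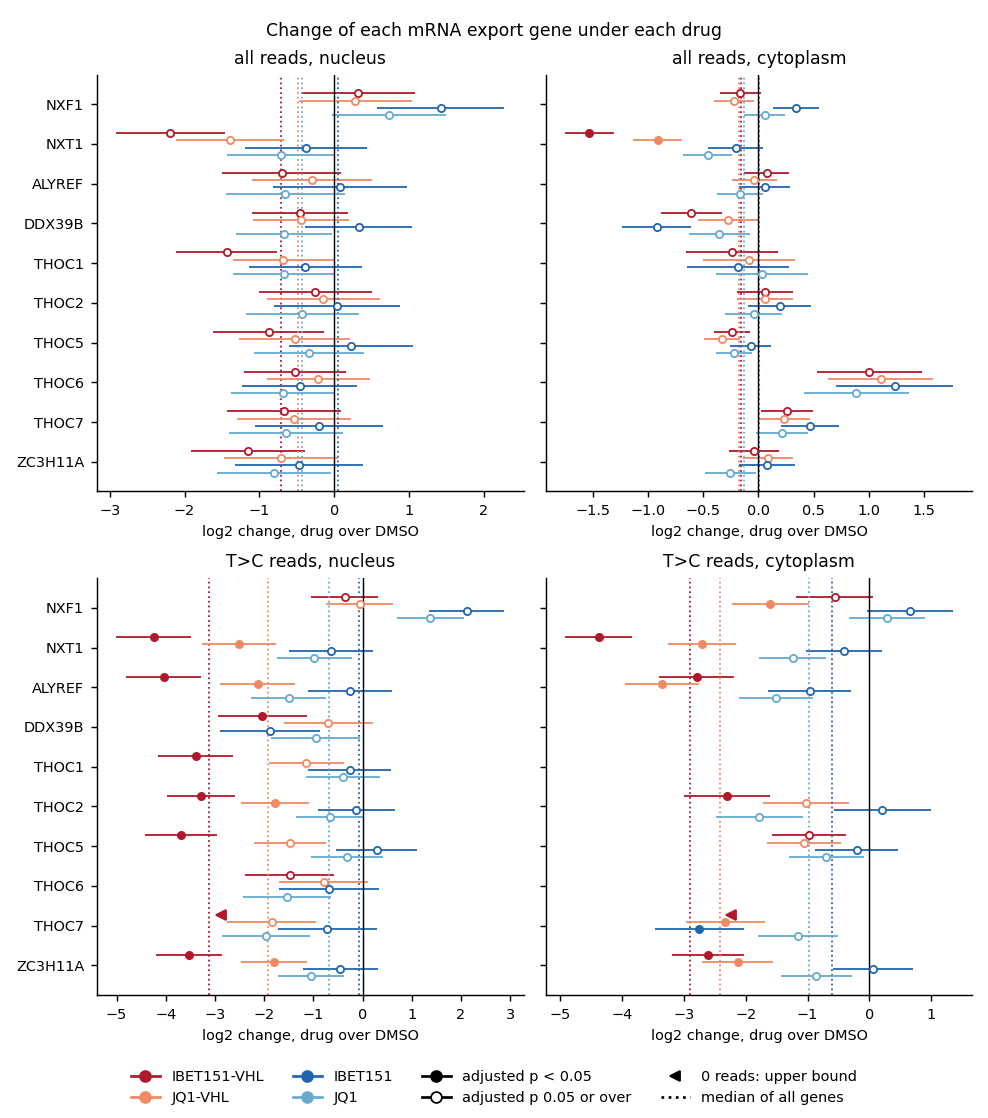
Log2 change of each export gene under each drug relative to DMSO (points: limma estimate; bars: SE; filled: adjusted p under 0.05; triangles: upper bound where all drug libraries had 0 reads), in all reads and T>C reads of both fractions, with the median of all genes per drug as dotted lines. NXT1 is the only filled point in all cytoplasmic reads (-1.53 and -0.91), and NXF1 lies to the right of the dotted line of each drug in nuclear T>C reads.

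Shares of T>C reads among a gene's own reads are given in percent of reads, and were tested on the log2 scale of scaled values with a pseudocount. In the nucleus the share fell for 8 genes under IBET151-VHL, where 67.1% of all genes fell, and the exceptions were NXF1 and THOC6. NXF1 had 2.53, 3.53 and 1.91% under IBET151-VHL, 2.44, 3.67 and 3.85% under JQ1-VHL, 8.79 and 5.15% under IBET151, 8.92, 9.49 and 3.24% under JQ1, and 7.77, 7.76 and 1.17% in DMSO. The third DMSO library, from the pair with few T>C reads, lay below all the others. IBET151 and JQ1 overlapped the other 2 DMSO libraries as well, while both VHL groups lay below those 2. Without it the NXF1 share passed as lower under IBET151-VHL. NXT1 had 2.46, 6.35 and 2.13% under IBET151-VHL, against 13.3, 25.8 and 11.5% in DMSO, with no overlap and a log2 change of -2.06 ± 0.55 (limma, adjusted p = 0.00436). ALYREF fell to 0.143, 0.545 and 0.194%, against 4.07, 4.46 and 1.57% in DMSO. Under JQ1-VHL 0 of the 10 were called, where 9.44% of all genes fell, and 1 had an unadjusted p under 0.05 (no count test was run on shares). Under IBET151 and JQ1 0 were called (1 and 0 at an unadjusted p under 0.05), where 0.0249% and 0.0166% fell. With the run as a block the counts under IBET151-VHL and JQ1-VHL were 10 and 5, where 82.5% and 67.2% of all genes fell.

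In the cytoplasm the share fell for 5 of 7 genes under IBET151-VHL (ALYREF, NXT1, THOC2, THOC7 and ZC3H11A) and 5 of 7 under JQ1-VHL (NXF1 in place of THOC2), where 82.2% and 76.2% of all genes fell. NXT1 had 0.829, 1.46 and 0.109% under IBET151-VHL and 0.638, 2.91 and 1.83% under JQ1-VHL, against 6.67, 5.92 and 4.80% in DMSO. Neither compound overlapped DMSO, and the log2 changes were -2.85 ± 0.60 and -1.79 ± 0.60 (limma, adjusted p = 0.000359 and 0.0126), the second lost without JQ1-VHL replicate 1. IBET151 (5.63 and 4.38%) overlapped DMSO, and JQ1 (3.89, 3.84 and 2.38%) lay below it without a call. THOC7 was the 1 gene called under IBET151 and 0 were called under JQ1 (3 at an unadjusted p under 0.05), where 3.73% and 7.79% of all genes fell.

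**Figure D5:**
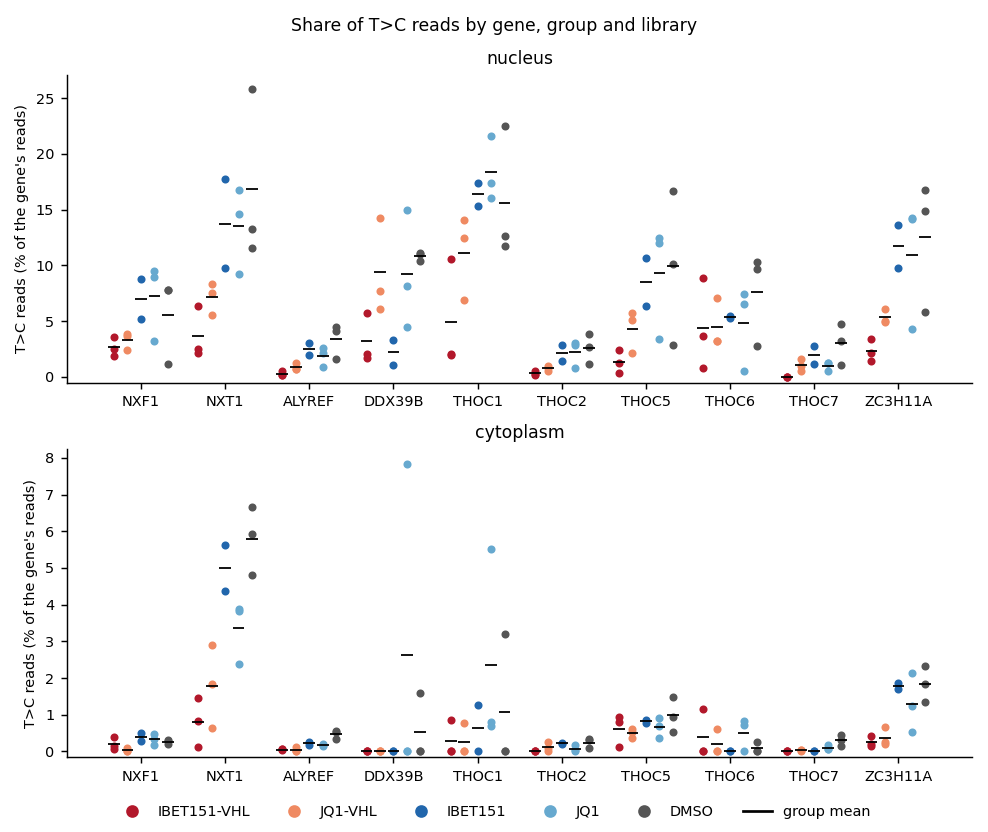
Share of T>C reads among the reads of each export gene, in percent, by group and library in the nucleus (top) and cytoplasm (bottom) (points: libraries; bars: group means). NXT1 reaches 4.80 to 6.67% in cytoplasmic DMSO libraries and 0.109 to 1.46% under IBET151-VHL. The single high cytoplasmic points of DDX39B and THOC1 rest on 4, 6 and 11 T>C reads.

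The VHL compounds were set against their parents at the same 3 h, in 2 pairs. The doses are not in the labels, so these differences are between the samples as treated and not between matched doses. In cytoplasmic all reads NXT1 was lower under IBET151-VHL than under IBET151 by -1.32 ± 0.25 on the log2 scale (95% interval -1.85 to -0.79; limma, adjusted p = 0.00336), and none of the other 9 passed, where 7.87% of all genes were lower. The call was lost without IBET151 replicate 2 (-1.20, adjusted p = 0.0672). The JQ1-VHL against JQ1 difference for NXT1 was -0.45 ± 0.22 (95% interval -0.93 to 0.02, adjusted p = 0.512), an interval that holds both 0 and a fall of 0.93. No export gene passed in that pair, where 4.18% of genes were lower, and 0 had an unadjusted p under 0.05.

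In T>C reads the pairs differed more. Under IBET151-VHL, 8 of 10 genes were lower than under IBET151 in the nucleus, where 81.4% of all genes were, and 4 of 7 in the cytoplasm (NXT1, ZC3H11A, THOC2 and ALYREF), where 69.1% were. In the cytoplasm NXT1 differed by -3.97 (95% interval -5.21 to -2.73) and ZC3H11A by -2.68 (-4.00 to -1.36), while THOC2 and ALYREF were not called without IBET151 replicate 1. NXF1 was among the 8, with 57.5, 209 and 98.5 under IBET151-VHL, against 755 and 470 under IBET151 (-2.48 ± 0.76, limma, adjusted p = 0.00198), a call lost without IBET151 replicate 1. That difference was 0.53 after median-ratio scaling and was not called. Under JQ1-VHL, 0 of 10 genes were called lower than under JQ1 in the nucleus, where 13.0% of all genes were (2 at an unadjusted p under 0.05), and 3 of 7 in the cytoplasm (ALYREF, NXF1 and NXT1), where 46.5% were. None of the 3 was called without JQ1 replicate 1 or JQ1-VHL replicate 1, and 1 without JQ1 replicate 2. As shares, 7 of 10 and 4 of 7 genes were lower under IBET151-VHL than under IBET151 in nucleus and cytoplasm, where 53.8% and 59.9% of all genes were. The 7 nuclear calls were lost without IBET151 replicate 1, and 4 stayed called without IBET151-VHL replicate 3. Against JQ1, JQ1-VHL gave 0 of 10 and 3 of 7, where 0.0083% and 38.4% were. For the IBET151 pair in all nuclear reads, 0 genes were called (1 at an unadjusted p under 0.05) where 0.541% of genes changed, and for the JQ1 pair 0 were called (0 at an unadjusted p under 0.05) where 0.298% did. In both pairs edgeR and DESeq2 likewise called 0.

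Whether a drug acted differently in the 2 fractions was tested as the nuclear minus the cytoplasmic change. In all reads no export gene differed under any drug, and 0 had an unadjusted p under 0.05, where 0.00692% of all genes differed under IBET151-VHL. edgeR and DESeq2 also called 0. In T>C reads, 7 export genes could be compared, since DDX39B, THOC1 and THOC6 had too few cytoplasmic reads. THOC5 fell further in the nucleus under IBET151-VHL (-2.72 ± 0.97, limma, adjusted p = 0.0307), where the median of the 6300 genes that passed the filter in the cytoplasm was -0.39 and 7.3% passed as lower. The call was lost in edgeR (adjusted p = 0.304), with a pseudocount of 0.5 (adjusted p = 0.0699), and without any 1 of 6 libraries: DMSO Nuc replicate 1 or 2, DMSO Cyto replicate 3, IBET151-VHL Nuc replicate 3 or IBET151-VHL Cyto replicate 2 or 3. None of the 7 differed in this way under JQ1-VHL, IBET151 or JQ1 (0 each at an unadjusted p under 0.05), where 0.286%, 0.0% and 0.0% of those genes passed as lower.

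Other genes of the export pathway were read from a list of 38, of which 36 were measured in both fractions in all reads. In all cytoplasmic reads 6 of 36 fell under IBET151-VHL, 3 under JQ1-VHL, 0 under IBET151 and 1 under JQ1, where 15.4%, 12.5%, 1.62% and 4.0% of all genes fell. RBM15, an RNA-binding adaptor that recruits NXF1, fell by 1.80 under IBET151-VHL and by 0.92 under JQ1-VHL on the log2 scale (limma, adjusted p = 0.000223 and 0.0316). NUP153, a protein of the nuclear basket of the pore, fell by 1.51 and by 1.56 (adjusted p = 0.000626 and 0.000834). PHAX, an adaptor for the export of small nuclear RNA, and RAE1, a pore-bound export factor, fell by 0.84 and by 0.81 under IBET151-VHL. NUP62, a pore channel protein, fell by 0.73 under JQ1 and by 0.57 under JQ1-VHL. The 6 genes of TREX-2, a complex that links export to the pore, gave 0 calls under any drug in these reads.

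In nuclear T>C reads 35 of 36 of these other genes fell under IBET151-VHL and 23 of 36 under JQ1-VHL, with medians of -3.10 and -1.78, where 83.9% and 60.5% of all genes fell, with medians of -3.12 and -1.92. Under IBET151 and JQ1 0 fell, where 0.987% and 2.29% of all genes did. In cytoplasmic T>C reads 25 and 24 of 28 fell under the VHL compounds, 1 under IBET151 and 8 under JQ1, where 88.3%, 82.8%, 6.76% and 20.1% of all genes fell. In nuclear T>C reads under IBET151-VHL the other TREX subunits, paralogs and adaptors gave 10 of 10 falls, TREX-2 gave 6 of 6, the cap-binding genes 3 of 4, the pore side 11 of 11, and the exportins and RAN 5 of 5, beside the same 83.9% of all genes. None of the 36 rose in any drug comparison, and few of all genes did. In nuclear T>C reads 132 of 12059 genes rose under IBET151-VHL and 154 under JQ1-VHL. In all cytoplasmic reads 58 and 52 of 12470 rose under these compounds. In DMSO cells 10 of 36 were higher in the nucleus in all reads, where 47.9% of all genes were, and 1 was lower.

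The genes whose level followed each export gene most closely were sought over the 14 cytoplasmic libraries, among 12470 genes on log2 values centred on the library median. These libraries share depth, run and treatment, and the correlations are descriptions. NXT1 was closest to BCDIN3D (r = 0.958), WDR20 (0.958) and ZNF830 (0.944). NXF1 was closest to TUBB4B (0.865), RBM14-RBM4 (0.859) and DPF3 (0.822), and these changed with the scale: without centring they were RSRP1 (0.929), CLK1 (0.928) and SENP5 (0.915). Among the 10 export genes themselves, THOC6 and THOC7 had the highest correlation (0.961 centred, 0.935 without centring). Both were lowest in DMSO replicate 1 (47.5 and 1810), and their correlation without that library was not tested. The lowest was THOC2 with NXT1 when centred (-0.781), a pair that gave -0.167 without centring, where THOC7 with DDX39B was lowest (-0.318).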

How the data were processed

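Polyadenylated RNA of nuclear and cytoplasmic fractions was made into 3′ QuantSeq libraries and read as 100 bp single ends, per the labels' protocols. The submitters' processing notes name bcl2fastq, Trimmomatic 0.39, HISAT2, HTSeq and DESeq2, and as builds dm3, hg19 and GRCh37. The rule for calling T>C reads is not given in the sources used here. Drosophila S2 cells, at 10%, and ERCC RNA were added as spike-ins, per the labels' protocols. No library without 4-thiouridine was analysed, so the background of T>C reads was not measured. The deposited values are the authors' signal, reads per gene multiplied by 1 ERCC factor per library, and every value came out as a whole read within 0.001 of a read. Nuclear values are 0.670 to 2.24 per read and cytoplasmic values 0.374 to 0.951, which limits what few reads can show.

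Genes at 10 or more (all reads) or 5 or more (T>C reads) in 2 or more libraries were tested with limma 3.58.1 in R 4.3.3 on log2(value + 1), so fold changes of low genes are understated. The share was tested as log2 of (T>C value + 1) over (value of all reads + 1). Each fraction was fitted over all its groups, and a fit over 28 libraries gave the differences between fractions. Adjusted p (Benjamini-Hochberg, over all genes of a comparison) under 0.05 was called. The scripts were checked on simulated data. Alternatives were pseudocounts 0.5 and 5, no filter, a minimum 5 times higher, median-ratio scaling, only the groups compared, a replicate block, a block of the run of library numbers, edgeR 4.0.16 and DESeq2 1.42.0 on the recovered reads, and leaving out each library. Library-sum scaling and leaving out the first run of nuclear library numbers were added after the data had been seen. Python 3.11.15, pandas 2.3.3 and matplotlib 3.10.9 were used.

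Replicate numbers come from the labels. They were taken as pairing where every pair of same-numbered libraries had deviations correlated above 0.1. This held for all reads among all groups but IBET151 (minimum r of 0.203 for cytoplasmic and 0.159 for nuclear libraries), for the fractions of DMSO (0.105), and for nuclear T>C reads of JQ1 and DMSO (0.234). It did not hold for IBET151 or for cytoplasmic T>C reads. All 10 export genes were named in every comparison, and of the other export genes at most the 4 with the smallest p per comparison. The members and lists were chosen with earlier results of these data known.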

Additional observations from a re-analysis of the deposited data

Results flagged for a closer look

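Under IBET151-VHL the change of new RNA differed between the fractions for THOC5, 1 of the 7 export genes with enough cytoplasmic T>C reads, by the test of the difference itself. THOC5 changed by -2.72 more in the nucleus than in the cytoplasm on the log2 scale (limma, adjusted p = 0.0307), where the median of the genes that passed the filter in the cytoplasm was -0.39. edgeR did not make the call (adjusted p = 0.304).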

How the results depend on the processing

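Of the single-gene changes recomputed under the alternatives, 6882 kept their direction and side of the threshold, 138 gained a call, 180 lost one and 12 turned round; of the counts of export genes called, 671 stayed within 1.5 times and 114 did not. No cause of these moves was tested. Few T>C reads limit the cytoplasm most: 3 of the 10 genes could not be tested there. The T>C counts between fractions below take in these 3 genes (DDX39B, THOC1 and THOC6), which entered that fit through the nucleus alone, and of the 2 calls for IBET151-VHL 1 is THOC1. DESeq2 gave no adjusted p for THOC7 in cytoplasmic T>C reads under IBET151, nor for THOC1 and THOC5 in the T>C difference between fractions. Shares were not run with the count tests or with either scaling.

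Median-ratio scaling turned 10 changes round. In T>C reads these were ZC3H11A in the cytoplasm under IBET151-VHL (0.024), ALYREF in the cytoplasm (0.53) and NXF1 in the nucleus (0.53) for IBET151-VHL against IBET151, NXF1 (2.63) and DDX39B (0.53) in the nucleus under IBET151-VHL, NXF1 in the nucleus under JQ1-VHL (1.69), and, in DMSO nuclei against cytoplasm, NXT1 (-2.27), THOC7 (-1.17) and ALYREF (-1.0). In all reads it turned THOC5 in the last comparison (-0.64). Library-sum scaling turned NXF1 in nuclear T>C reads under IBET151-VHL (1.99) and JQ1-VHL (1.44).

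In the counts below, drugs are set against DMSO unless a pair is named. With median-ratio scaling the cytoplasmic T>C count was 2 under IBET151-VHL, 0 under JQ1-VHL, 0 under IBET151, and 0 in each pair of VHL compound and parent. The nuclear T>C count was 2 under IBET151-VHL, 1 each under JQ1-VHL, IBET151 and JQ1, and 1 for IBET151-VHL against IBET151. In all reads it was 2 under IBET151-VHL and 1 under each other drug in the nucleus, and 0 under JQ1-VHL in the cytoplasm. Between DMSO fractions 8 genes passed when all reads were used and 4 with T>C reads, and 1 passed for the IBET151-VHL difference between fractions in each. With library-sum scaling the cytoplasmic T>C count was 2 under IBET151-VHL, 1 under JQ1-VHL, 0 under IBET151, 1 for the IBET151 pair and 0 for the JQ1 pair. In nuclear T>C reads it was 1 each under JQ1-VHL, IBET151 and JQ1 and 2 for the IBET151 pair, and in all nuclear reads 2 under IBET151-VHL and 1 under each other drug.

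With the minimum 5 times higher, cytoplasmic counts of T>C reads and of shares were both 3 under IBET151-VHL, 3 under JQ1-VHL and 0 under IBET151. Pseudocount 5 gave 3 T>C calls and 2 share calls in the cytoplasm under JQ1 and 5 for the IBET151-VHL T>C difference between fractions, which pseudocount 0.5 put at 0. With only the groups compared, all reads gave 0 in the cytoplasm under JQ1-VHL and 1 in the nucleus under IBET151-VHL. That fit gave T>C counts of 2 in the nucleus under JQ1-VHL, 1 in the nucleus under IBET151 and 2 in the cytoplasm under JQ1, and cytoplasmic share counts of 0 under IBET151 and 1 for JQ1-VHL against JQ1. edgeR gave 0 cytoplasmic T>C calls under IBET151, 1 for JQ1-VHL against JQ1 and 0 for the IBET151-VHL difference between fractions, and both edgeR and DESeq2 gave 1 call in all nuclear reads under IBET151-VHL. Without the first run of nuclear library numbers, all reads gave 1 call each under IBET151-VHL and IBET151, and T>C reads gave 2 under JQ1-VHL.

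With the replicate block, all nuclear reads gave 5 calls under IBET151-VHL, 1 each under JQ1-VHL, IBET151 and JQ1, and 7 for IBET151-VHL against IBET151; nuclear T>C reads gave 1 for JQ1-VHL against JQ1, and nuclear shares 2 under JQ1-VHL. The replicate block moved no other count by over 1.5 times. IBET151 libraries shared only a number with the others, and replicate 3 of the VHL compounds shared no run with replicate 3 of DMSO or JQ1. With a block for the run of library numbers, all nuclear reads gave 6 calls under IBET151-VHL, 3 under JQ1-VHL, 4 under IBET151, 8 under JQ1 and 3 for the IBET151 pair, and all cytoplasmic reads 2 under IBET151-VHL, 2 under JQ1-VHL and 2 for the IBET151 pair. T>C reads gave 7 under JQ1-VHL, 3 under JQ1 and 5 for the JQ1 pair in the nucleus and 1 under JQ1 in the cytoplasm, and nuclear shares 5 under JQ1-VHL and 4 for the JQ1 pair.

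Leaving out 1 library at a time, counts in all reads ranged from 1 to 2 in the cytoplasm under IBET151-VHL, and from 0 to 1 there under JQ1-VHL, IBET151, JQ1 and for the IBET151 pair, and in the nucleus under IBET151-VHL. Counts in T>C reads ranged from 0 to 1 in the cytoplasm under IBET151 and under JQ1, from 2 to 4 for the IBET151 pair and from 0 to 4 for the JQ1 pair there, from 0 to 6 in the nucleus under JQ1-VHL, and from 0 to 2 for the IBET151-VHL difference between fractions. Counts of shares ranged in the cytoplasm from 3 to 5 under JQ1-VHL, from 0 to 1 under IBET151, from 2 to 4 for the IBET151 pair and from 0 to 3 for the JQ1 pair, and in the nucleus from 0 to 3 under JQ1-VHL and from 0 to 7 for the IBET151 pair.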
